A study of Mus musculus with 6 samples.

Results

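The genes of the 4 Hox clusters were followed in mouse myoblasts after knockdown of PRDM2. Probe sets were taken as members where the platform annotation names a single gene and its symbol is Hoxa, Hoxb, Hoxc or Hoxd followed by a number only. This gave 48 of 45033 probe sets and 33 of 18192 genes. The mammalian Hox genes encode homeodomain transcription factors that give cells their position along the head-to-tail axis and along the limb. The clusters are named HoxA to HoxD, and genes of the same number in different clusters (paralogs, 1 to 13) descend from a common ancestor. Low numbers are active towards the head and high numbers towards the tail and the end of the limb, and cells of adult tissues, muscle among them, keep a Hox profile of the place they came from. Whole clusters are held silent by Polycomb proteins or kept open by Trithorax proteins, and Hox proteins bind DNA together with TALE partners of the Pbx, Meis and Pknox families.

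Expression was measured on 6 Affymetrix mouse arrays hybridised with total RNA of C2C12 cells, a mouse myoblast line derived from leg muscle. All cells had differentiated for 28 hours in medium with 2% horse serum. The 3 control samples were transfected with an shRNA (short hairpin RNA) directed at GFP and the 3 knockdown samples with one directed at PRDM2, a histone H3 lysine 9 methyltransferase. The labels call the 3 samples of each group biological replicates. The labels do not say whether the transfected cells were pools or clones. The 33 genes were 9 in HoxA, 9 in HoxB, 7 in HoxC and 8 in HoxD. Intensities are given in the deposited linear units, and a gene is represented by its brightest probe set.

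The labels were checked before the Hox genes were read. All 10 myoblast and early myotube markers stood above the array median on every array, and their summed intensity was 14622 to 16751 units in the control and 15696 to 17328 units in the knockdown samples. The sum hides Myf5, a myogenic regulatory factor that read 177, 43.5 and 170 units in the controls and 29.7, 41.0 and 34.7 units in the knockdown samples. With control replicate 2 left out, its log2 value fell by 1.90 (limma, SE 0.11, adjusted p = 0.0056), the 1 marker of the 10 called in that fit. None of 5 endothelial markers did so on any array. Prdm2 itself was not lower in the knockdown samples, with a log2 fold change of 0.15 (SE 0.19, 95% interval -0.31 to 0.62) and 0.27 (SE 0.20) without control replicate 2, so directions rest on the labels. Control replicate 2 stood apart from the other controls. Over the 10278 genes above the array median on all 6 arrays, its log2 values deviated from those of control replicates 1 and 3 by 0.36 and 0.35 (scaled median absolute deviation) and from those of knockdown replicate 2 by 0.08. This last value was the smallest of the 15 pairs of arrays, the next being 0.20. Knockdown replicate 2 also stood off from knockdown replicates 1 and 3, by 0.29 and 0.26. Knockdown replicates 1 and 3 deviated from each other by 0.20, and control replicates 1 and 3 by 0.21. The fit over all genes was therefore repeated without control replicate 2, and also without both arrays numbered 2.

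HoxC and most of HoxA stood above the array median in these cells, HoxB was mostly low, and no HoxD gene passed the median on any array. The array median, between 10.7 and 11.4 units on the 6 arrays, served as the reference, and a gene was counted where it lay above that median on each array. All 7 measured HoxC genes did so, as did 6 of 9 HoxA genes, 2 of 9 HoxB genes and 0 of 8 HoxD genes. That makes 15 of 33 Hox genes, or 45.5%, against 56.5% of all genes, so the share of the family was below that of all genes and no test was made of it. Another 3 genes passed on some arrays, and 15 on none. Counted by probe set, 18 of 48 Hox probe sets passed on all arrays, or 37.5%, against 42.7% of all probe sets. The array median is a low bar, and it is taken over all probe sets, the dimmer ones of each gene included. Against the median over 1 probe set per gene, 6 genes passed on all arrays (Hoxa9, Hoxa10, Hoxa11, Hoxc4, Hoxc6 and Hoxc10), and against each array's upper quartile, 3 did (Hoxa9, Hoxc6 and Hoxc10). In none of these counts was a HoxD gene included. A low reading says only that this probe set gave little signal, and in bulk RNA fewer cells with a transcript and less transcript per cell cannot be told apart.

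**Figure D1:**
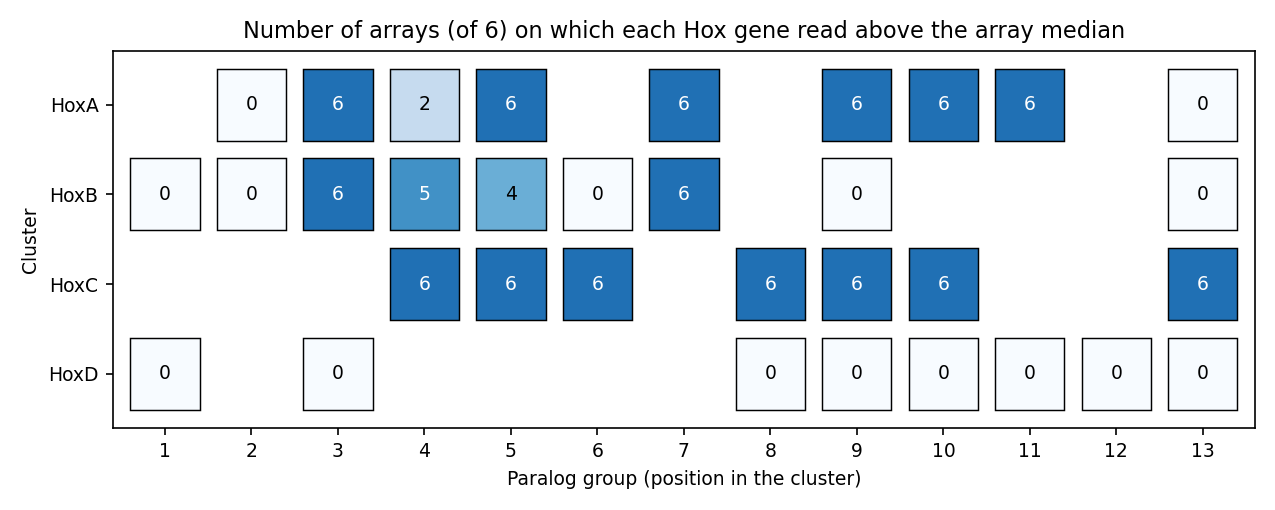
Each box is a measured Hox gene, placed by cluster (rows) and paralog number (columns), and the number in it counts the arrays of 6 on which its brightest probe set read above the array median. The HoxC row holds 6 in all 7 boxes and the HoxD row 0 in all 8; empty places hold no gene or one not analysed here.

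By position, the anterior group (paralogs 1 to 3) had 2 of 7 genes above the median on all arrays, namely Hoxa3 and Hoxb3. The central group (4 to 8) had 7 of 12 and the posterior group (9 to 13) 6 of 14. The posterior genes that passed were Hoxa9, Hoxa10, Hoxa11, Hoxc9, Hoxc10 and Hoxc13. Cluster divided paralogs of the same number. Among the paralogs numbered 9, which take part in patterning the trunk and upper limb, Hoxa9 and Hoxc9 passed on all 6 arrays and Hoxb9 and Hoxd9 on 0. Of those numbered 11, which pattern the lower arm and leg, Hoxa11 passed and Hoxd11 did not, with Hoxd11 between 0.92 and 2.77 units. Of those numbered 13, which pattern the hand and foot and the hind end, Hoxc13 passed on all 6 arrays and Hoxa13, Hoxb13 and Hoxd13 on 0. Within HoxA, the run from Hoxa9 to Hoxa11 was above the median and its neighbour Hoxa13 was not, reading 2.90 to 5.65 units.

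The sequence around the start sites of 2 such HoxA genes and of a HoxD paralog is shown because Hoxa9 and Hoxd9 share a number but stood on opposite sides of the array median. Each line holds 250 bases before and 50 bases from the annotated start, from RefSeq on build GRCm38.p6, written 5′ to 3′ on the gene's strand. Hoxa9 lies at chr6:52227321-52227620 and Hoxa11 at chr6:52245761-52246060, both on the minus strand, and Hoxd9 at chr2:74697513-74697812 on the plus strand. Capitals mark matches, on either strand, to any of 5 motifs: the TATA box TATAAA, the CCAAT box CCAAT, the GC box GGGCGG, the Hox-Pbx site TGATNNAT and the E-box CAGCTG, a form bound by myogenic factors.
Hoxa9: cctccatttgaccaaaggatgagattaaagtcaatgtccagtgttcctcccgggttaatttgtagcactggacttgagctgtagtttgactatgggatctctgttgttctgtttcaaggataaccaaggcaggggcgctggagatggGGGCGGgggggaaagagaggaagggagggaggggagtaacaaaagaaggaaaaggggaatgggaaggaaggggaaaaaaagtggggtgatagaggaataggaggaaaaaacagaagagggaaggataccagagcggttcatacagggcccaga
Hoxa11: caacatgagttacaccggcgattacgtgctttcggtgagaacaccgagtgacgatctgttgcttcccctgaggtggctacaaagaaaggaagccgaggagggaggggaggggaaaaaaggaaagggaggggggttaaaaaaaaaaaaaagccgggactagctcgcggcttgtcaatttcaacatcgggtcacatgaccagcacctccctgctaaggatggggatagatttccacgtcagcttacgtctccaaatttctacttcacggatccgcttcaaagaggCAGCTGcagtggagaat
Hoxd9: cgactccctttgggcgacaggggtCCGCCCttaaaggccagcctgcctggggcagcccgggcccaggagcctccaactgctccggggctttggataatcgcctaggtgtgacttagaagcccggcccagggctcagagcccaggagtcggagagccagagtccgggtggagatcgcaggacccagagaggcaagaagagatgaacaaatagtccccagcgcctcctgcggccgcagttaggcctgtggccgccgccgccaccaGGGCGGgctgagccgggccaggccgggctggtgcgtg
The Hoxa9 window held 1 GC box, starting at its base 148, and the Hoxd9 window held 2, starting at bases 25 and 264. The Hoxa11 window held 1 E-box, starting at base 284, and no other of the 5 motifs. CAGCTG stood in 16.3% of all 32851 promoter windows and GGGCGG in 35.7%. The ratio of observed to expected CpG was 0.28 for Hoxa9, 0.79 for Hoxa11 and 0.57 for Hoxd9, with 4, 15 and 20 CpG pairs in the window. RefSeq windows were at hand for 22 Hox genes (24 windows). Their median CpG ratio was 0.63, against 0.38 over all promoter windows. It was 0.63 over the 8 windows of genes above the array median on all 6 arrays and 0.67 over the 12 windows of genes above it on none. CCAAT stood in 3 of those 8 windows, in 9 of those 12 and in 37.4% of all windows. The Hox-Pbx site stood in 0 of the 8, 3 of the 12 and 8.85% of all windows, and CAGCTG in 3 of the 8 and 0 of the 12. The 8 windows belonged to HoxA genes and Hoxc4, and most of the 12 to HoxD genes. Level and cluster therefore cannot be told apart in these counts. A match is a description of the letters and shows no binding.

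The posterior HoxA genes are described first. Hoxa9, a factor also active in satellite cells and blood progenitors, read 130, 156 and 117 units in control replicates 1, 2 and 3 and 106, 143 and 101 units in knockdown replicates 1, 2 and 3. The groups overlapped, and each knockdown array lay below the control array of its number. Its log2 fold change, knockdown over control on log2(intensity + 16), was -0.16 (SE 0.14, 95% interval -0.49 to 0.17, adjusted p = 1.00 with limma, n = 3 per group), and -0.08 without control replicate 2. A second probe set of Hoxa9 lay at the array median, between 10.7 and 14.8 units. Hoxa10, a paralog of Hoxc10 and Hoxd10 that patterns the lumbar region and thigh, read 37.7, 68.7 and 41.2 units in the controls and 40.0, 59.7 and 40.6 in the knockdown samples, in the same order. Its highest arrays were the pair numbered 2, and its log2 fold change was -0.03 with all arrays and 0.15 without control replicate 2. A second probe set of Hoxa10 read 5.81 to 12.3 units and passed the median on 2 arrays.

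Hoxa11, which in the limb marks the segment between elbow and wrist or knee and ankle, had the largest difference of the 33 Hox genes with all 6 arrays and the only call without control replicate 2. Its probe set read 27.2, 77.9 and 28.6 units in control replicates 1, 2 and 3, and 61.4, 70.8 and 53.5 units in knockdown replicates 1, 2 and 3. Control replicates 1 and 3 were low, control replicate 2 was the highest of all, and the groups overlapped through that array alone. The log2 values were 5.45, 6.49 and 5.49 against 6.25, 6.42 and 6.20, giving a log2 fold change of 0.48 (SE 0.28, 95% interval -0.18 to 1.14, adjusted p = 1.00 with limma). Within the numbers, knockdown minus control was 0.80 for number 1, -0.07 for number 2 and 0.71 for number 3. Without control replicate 2, Hoxa11 rose by 0.82 (SE 0.10, 95% interval 0.58 to 1.06, adjusted p = 0.024 with limma, 2 control and 3 knockdown arrays), a factor of 1.76 on this scale. That fit called 291 of 18192 genes, or 1.6%, and 1 of the 33 Hox genes. With both arrays numbered 2 left out, the difference was 0.76 (adjusted p = 0.048 with limma, 0.66% of genes called), or adjusted p = 0.015 with the replicate block (3.96% called). On the deposited scaling this call without the number 2 arrays was lost (log2 fold change 0.74, adjusted p = 0.086 with limma). Fitted over all 45033 probe sets without control replicate 2, 0.529% were called, the Hoxa11 probe set among them. The fit without control replicate 2 was 1 of 6 that each left out an array, and it was singled out after the array had been seen to stand apart, so its p-values are optimistic.

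Hoxa11os, a non-coding RNA read from the opposite strand of the Hoxa11 locus, is not a member but overlaps it. Its brighter probe set read 48.8, 80.8 and 47.4 units in the controls and 51.6, 73.1 and 62.6 units in the knockdown samples. Knockdown replicate 1, high for Hoxa11, stayed near the low controls here. Without control replicate 2 its log2 fold change was 0.28 (SE 0.14, adjusted p = 0.47 with limma). Which strand each probe set reads was not analysed here. Marker genes of other cell types also differed between these arrays. The 6 fibroblast markers, of which 3 stood above the median on all arrays and Lum and Thy1 on none, summed to 323 to 994 units in the controls and 565 to 1131 in the knockdown samples, but they did not move as one. Col1a1, a collagen chain, read 99.9, 849 and 90.8 units in the controls and 1054, 844 and 487 in the knockdown samples. Dcn, which encodes the proteoglycan decorin, read 176, 17.8 and 178 units in the controls and 7.23, 13.7 and 19.6 in the knockdown samples, the opposite way. In the fit without control replicate 2, Col1a1 rose by 2.80 (adjusted p = 0.010 with limma) and Dcn fell by 2.74 on the log2 scale (adjusted p = 0.0068 with limma), and the other 4 markers were not called. The 5 neural markers, of which 1 stood above the median on all arrays and 2 on none, summed to 1079 and 623 units in those same arrays, 60.6 in control replicate 2 and 41.0 to 64.3 in the knockdown samples. Of these Nefl and Tubb3 fell without control replicate 2, by 4.72 and 3.19 on the log2 scale (adjusted p = 0.0015 and 0.0068 with limma). Their part in the Hoxa11 result was not tested.

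**Figure D2:**
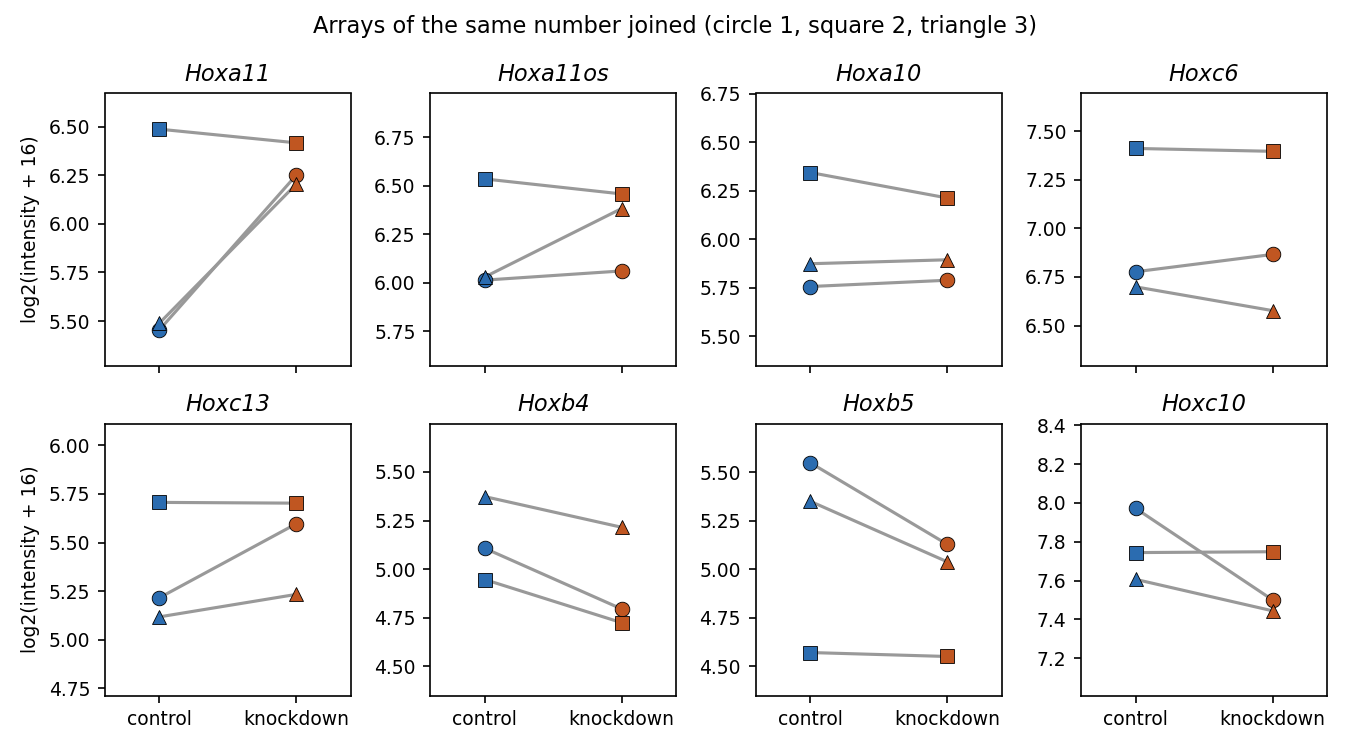
Each panel gives log2(intensity + 16) for a gene (vertical axis, equal span in all panels) in control (blue) and knockdown (orange) arrays, with arrays of the same number joined. For Hoxa11 the control arrays 1 and 3 lie at 5.45 and 5.49 and all other arrays at 6.20 or above, whereas for Hoxb5 both arrays numbered 2 are the lowest, at 4.57 and 4.55.

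The other HoxA genes were near the array median or, for Hoxa2 and Hoxa13, well below it. Hoxa3, a gene of the neck and pharyngeal arches, read 12.3 to 17.1 units, but 3 of its 4 probe sets did not stay above the median on all arrays. Hoxa5, a regulator of lung and shoulder development, read 17.7 to 25.6 units in a probe set whose class allows shared probes, and its other probe set read 11.2 to 19.6. Hoxa7 read 12.9 to 18.3 units. Hoxa4 passed the median on 2 arrays, and Hoxa2, which patterns the second pharyngeal arch, read 2.25 to 5.51 units. With all 6 arrays these 5 genes had log2 fold changes between 0.04 and 0.14, with all groups overlapping. Without control replicate 2, Hoxa5 stood at -0.02. In that fit Hoxa4 stood at 0.28 (SE 0.13, adjusted p = 0.45 with limma), and its groups did not overlap. A second probe set of Hoxa4 read 1.51 to 7.92 units and went the other way. Its log2 fold change was -0.19 with all 6 arrays and -0.12 without control replicate 2.

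In HoxC all 7 measured genes stood above the median on every array. Hoxc10, which marks lumbar and hindlimb identity, read 245, 205 and 170 units in the controls and 174, 198 and 147 in the knockdown samples. Control replicate 1 was the highest array and knockdown replicate 3 the lowest, and the groups overlapped. Knockdown over control, Hoxc10 stood at a log2 fold change of -0.21 (SE 0.13, 95% interval -0.52 to 0.10, adjusted p = 1.00 with limma), and at -0.22 without control replicate 2, and the differences within the numbers were -0.47, 0.0044 and -0.16. Hoxc6, a thoracic gene expressed at the level of the forelimb, read 96.2, 161 and 84.0 units in the controls and 105, 153 and 73.8 in the knockdown samples. Both arrays numbered 2 were the highest in this probe set. The other 2 probe sets of Hoxc6 were flat, at 32.6 to 42.0 and 43.5 to 53.1 units, so probe sets of 1 gene did not share the pattern.

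Hoxc13, a regulator of hair and nail keratins, was the sole paralog of its number above the median. It read 20.6, 38.2 and 19.0 units in the controls and 32.8, 37.1 and 21.1 in the knockdown samples, and its log2 fold change was 0.16 (SE 0.19, 95% interval -0.29 to 0.62). As with Hoxa11, control replicates 1 and 3 were the lowest arrays, but knockdown replicate 3 lay close to them. Without control replicate 2 the value was 0.34 (SE 0.15, adjusted p = 0.41 with limma). Hoxc8, a gene of the lower thorax and forelimb motor pools, read 33.3, 48.6 and 39.7 units in the controls and 37.2, 39.1 and 23.4 in the knockdown samples, with a log2 fold change of -0.21 (SE 0.14). Its lowest array was knockdown replicate 3, without which the value was -0.07 (SE 0.12), and without control replicate 2 it was -0.13. Within the numbers, knockdown minus control was 0.08, -0.19 and -0.51. Hoxc9, which acts at thoracic level, read 23.8 to 45.2 units, and Hoxc4 27.9 to 43.0, each with both arrays numbered 2 the highest. Hoxc5 read 16.2 to 23.9 units, and 2 further probe sets of it did not stay above the median. The log2 fold changes of Hoxc4, Hoxc5, Hoxc6 and Hoxc9 were -0.05, 0.16, -0.02 and -0.02. They were 0.03, 0.11, 0.21 and 0.12 without control replicate 2, so that Hoxc4, Hoxc6 and Hoxc9 changed sign.

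**Figure D3:**
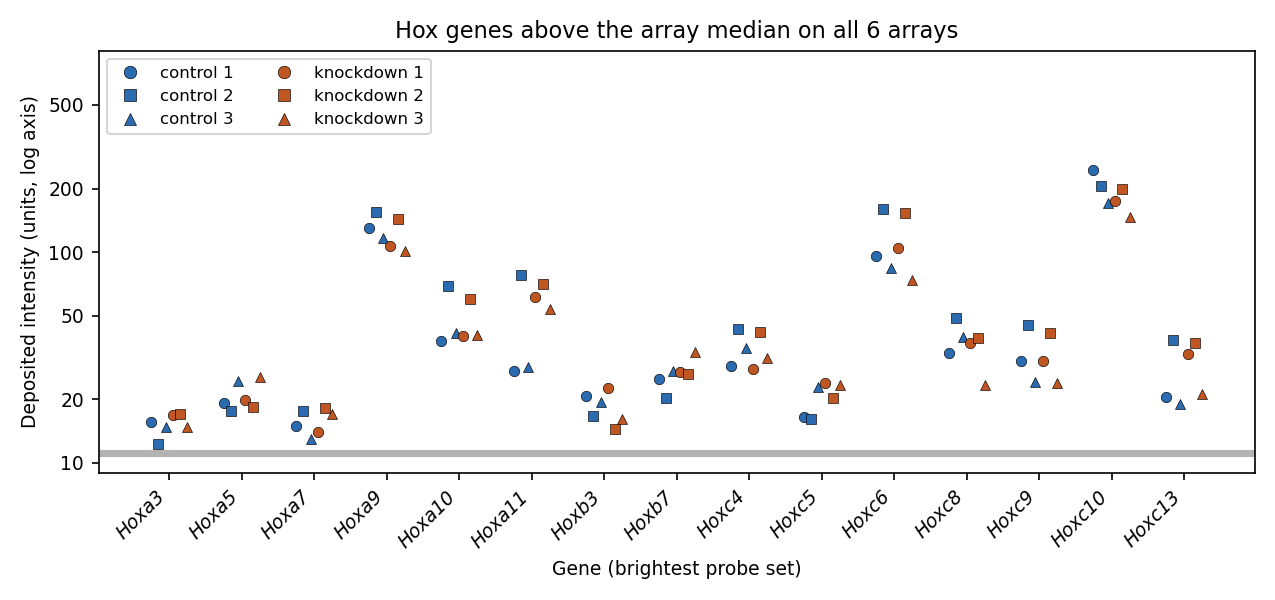
Deposited intensities (log axis) of the 15 Hox genes above the array median on all 6 arrays, with a point for each array and a grey band for the range of array medians, 10.7 to 11.4 units. Points show how arrays differ within a gene, since heights of different probe sets are not comparable; the squares of arrays numbered 2 lie highest for Hoxa9, Hoxa10 and Hoxc6.

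HoxB genes were mostly below or near the median. Hoxb5, a gene of the shoulder and neck level, read 30.4, 7.45 and 24.8 units in the controls and 19.2, 7.25 and 16.7 in the knockdown samples. The arrays numbered 2 lay below the array median and the other arrays above it. Its log2 fold change was -0.25 (SE 0.28, 95% interval -0.91 to 0.41, adjusted p = 1.00 with limma), and -0.54 (SE 0.19, adjusted p = 0.27 with limma) without control replicate 2. Hoxb4, known for its action in blood stem cells, read 18.0, 14.6 and 25.4 units in the controls and 11.9, 10.1 and 20.7 in the knockdown samples. Each knockdown array was the lower within its number, by 0.31, 0.22 and 0.16 on the log2 scale, at a log2 fold change of -0.23 (SE 0.17, 95% interval -0.63 to 0.17), or -0.33 without control replicate 2. With the replicate number as a block, the unadjusted p was 0.019 for Hoxb4, 0.045 for Hoxb5 and 0.039 for Hoxa11, and the adjusted p 0.55 for each with limma. In that fit 3 of 33 Hox genes had an unadjusted p under 0.05, or 9.09%, which is near the 9.01% of all genes.

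Hoxb7, a thoracic gene, read 25.0, 20.3 and 27.2 units in the controls and 26.9, 26.5 and 33.6 in the knockdown samples. Each knockdown array was the higher within its number, with a log2 fold change of 0.17 (SE 0.12, 95% interval -0.11 to 0.45), or 0.09 without control replicate 2. Hoxa3, Hoxb6, Hoxc5, Hoxd3 and Hoxd12 were also higher within each number, and Hoxb5, Hoxb13 and Hoxc4 lower, as Hoxa9 and Hoxb4 were. The share of all genes with such shared signs was not counted, so no result about these genes is read from them. Hoxb13, Hoxd3 and Hoxd12 did not exceed 2.71, 4.49 and 2.41 units. Other probe sets of Hoxa3, Hoxa9, Hoxb4 and Hoxc5 did not all keep the direction within each number. Hoxb3, active in the hindbrain, read 14.6 to 22.8 units, and its second probe set 4.08 to 7.86, below the median on all arrays. Hoxb1, Hoxb2, Hoxb6, Hoxb9 and Hoxb13 stood below the median on all arrays. A probe set that names Hoxb7 and Hoxb8 together read 9.57 to 20.5 units and was not used.

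The HoxD cluster was below the median throughout. Over all 10 probe sets of its 8 genes, the highest single reading was 8.30 units, for Hoxd8. Hoxd10, Hoxd11 and Hoxd12, which pattern the forearm and digits, did not exceed 2.99, 2.77 and 2.41 units. Log2 fold changes in HoxD lay between -0.07 and 0.07. At these intensities the offset of 16 sets the scale, so a small difference there is no sign of precision.

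With all 6 arrays and limma, the 0.05 threshold on adjusted p was passed by 0 of 33 Hox genes and by 0% of 18192 genes. Unadjusted, 0 Hox genes and 3.3% of all genes were under 0.05. In 0 of the 33 did the 2 groups fail to overlap, against 7.17% of all genes. The median log2 fold change of the Hox genes was 0.04, with 17 of 33 on the higher side, and that of all genes was -0.0033. Without control replicate 2 the median was 0.03, with 19 of 33 on the higher side and 8 of the 33 changed in sign, and 2 Hox genes (Hoxa11 and Hoxb5) had an unadjusted p under 0.05, or 6.06%, against 13.4% of all genes. The 95% intervals of the 32 genes other than Hoxa11 reached from -0.91 to 0.62 at their widest with all 6 arrays, so changes of that size cannot be told from the spread.

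**Figure D4:**
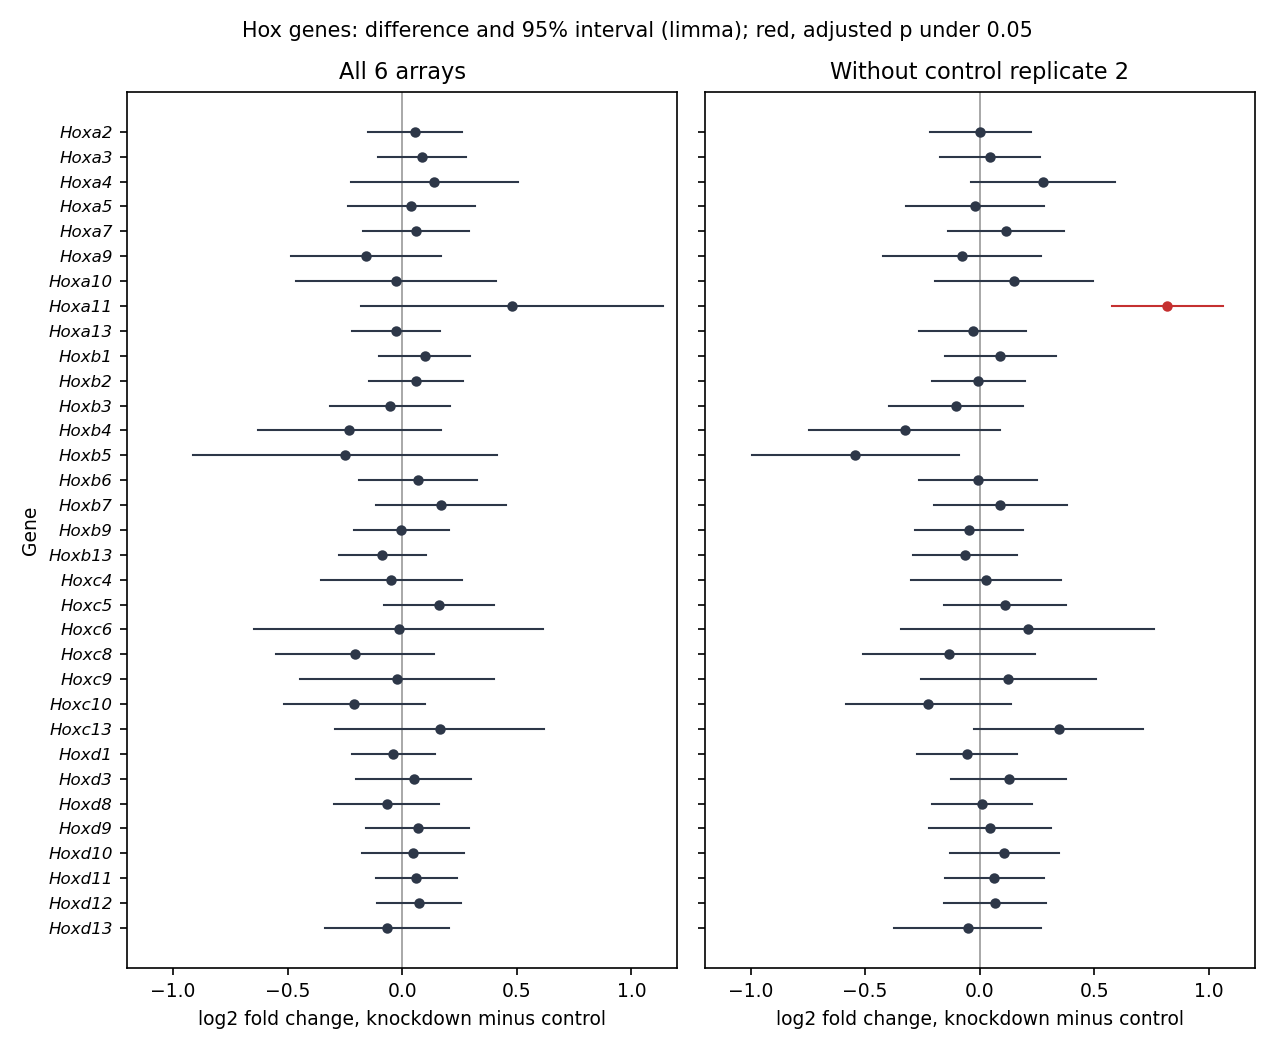
Log2 fold change (horizontal axis, knockdown minus control, on log2(intensity + 16)) and 95% interval from limma for the 33 Hox genes, with all 6 arrays on the left and without control replicate 2 on the right. No gene is called on the left; on the right Hoxa11, at 0.82, is the sole gene in red (adjusted p under 0.05).

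In 8 of the 15 genes above the median on all arrays, both arrays numbered 2 were the highest of the 6 (Hoxa7, Hoxa9, Hoxa10, Hoxa11, Hoxc4, Hoxc6, Hoxc9 and Hoxc13), and in 1, Hoxa5, they were the lowest. Among all genes above the median on all arrays, these shares were 23.3% and 21.1%. Over all 33 Hox genes the counts were 10 and 5, against 18.1% and 19.3% of all genes. Over the 15 Hox genes, the median absolute log2 difference between control replicate 2 and knockdown replicate 2 was 0.07, and between control replicate 2 and control replicates 1 and 3 it was 0.23 and 0.27. Control replicate 1 and knockdown replicate 1 also differed by a median of 0.07, and control replicate 3 and knockdown replicate 3 by 0.12. Signs of RNA quality went with the number. The ratio of 3′ to 5′ control probe sets of Gapdh was 0.94 and 0.93 on the arrays numbered 2 and 0.97 to 1.10 on the others, and that of Actb was 1.39 and 1.45 against 1.60 to 1.77. The part of RNA quality in this pattern was not tested.

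Of 11 TALE genes, whose proteins bind DNA with Hox proteins, 10 were measured, 9 of them above the median on all arrays, and Pbx4 on none. With all 6 arrays 0 passed the threshold (limma), with a median log2 fold change of 0.02. Pknox2 had log2 values of 7.09, 7.70 and 7.15 in the controls and 7.62, 7.74 and 7.84 in the knockdown samples, with control replicates 1 and 3 low as for Hoxa11. Its log2 fold change was 0.42 (SE 0.17), and without control replicate 2 it rose by 0.61 (SE 0.10, adjusted p = 0.047 with limma), the sole TALE gene called in that fit. Without both arrays numbered 2 the Pknox2 call was lost (0.61, adjusted p = 0.10 with limma), and with the replicate block added it passed again (adjusted p = 0.029). The mean of its probe sets gave 0.23 with all 6 arrays. Pbx3 stood at 6.62, 7.01 and 6.40 in the controls and 7.83, 7.11 and 7.12 in the knockdown samples, with no overlap, at a log2 fold change of 0.68 (SE 0.24, adjusted p = 1.00 with limma). The value was 0.84 without control replicate 2 (adjusted p = 0.18 with limma), and Pbx3 was called only without both arrays numbered 2 and with the replicate block (0.96, SE 0.13, adjusted p = 0.020 with limma). The log2 fold changes of Meis2 and Meis1 were -0.38 (SE 0.14) and -0.27 (SE 0.11), or -0.52 and -0.33 without control replicate 2. Both genes read lower in all 3 knockdown arrays than in any control array. Groups that did not overlap, as for these genes and Pbx3, were found in 7.17% of all genes.

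Genes that set, flank or regulate the clusters gave no call. Of 20 measured genes around or upstream of the clusters, 13 of retinoic acid signalling, 11 Trithorax and related regulators and 12 Polycomb genes, 0 passed in either direction in any of the planned fits (limma). Their medians were 0.05, -0.02, -0.05 and -0.01. All 11 Trithorax and all 12 Polycomb genes read above the median on all arrays, and of the retinoic acid genes 4 did. Of 17 other homeobox genes of limb and trunk, 0 passed with all 6 arrays and 1 without control replicate 2. That was Prrx1, a limb mesenchyme factor, at log2 values of 7.84, 6.49 and 7.96 in the controls and 6.02, 6.38 and 6.80 in the knockdown samples. In that fit its log2 value fell by 1.50 (limma, SE 0.22, adjusted p = 0.0365), opposite in direction to Hoxa11, and stood at -1.03 (SE 0.41) with all 6 arrays. Without both arrays numbered 2 the Prrx1 call was lost (-1.49, adjusted p = 0.0945 with limma), and with the replicate block it passed (adjusted p = 0.010). The mean of its 6 probe sets gave -0.54 with all 6 arrays. Pitx3, which read 29.2, 57.8 and 18.5 units in the controls and 48.0, 55.4 and 37.5 in the knockdown samples, was called only without both arrays numbered 2 and with the replicate block (0.59, SE 0.11, adjusted p = 0.041 with limma).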

How the data were processed

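The authors deposited linear intensities for 45101 probe sets, made with GCOS and PLIER per the submitters' processing notes, which give no version, role or order. How arrays were normalized against each other is not stated there. Left out were 64 control probe sets and 4 of Gngt1 that held the gene's Entrez number in control replicate 2. All 48 Hox probe sets matched RefSeq by Entrez number. Values were quantile-normalized as log2(intensity + 16), which understates changes of dim genes. The brightest probe set naming a gene alone represented it. Groups, taken from the sample titles, were compared over 18192 genes with limma 3.58.1 in R 4.3.3 (two-sided, no block, Benjamini-Hochberg over all genes, threshold 0.05). The fitting code was run on simulated data with independent noise of equal size for all genes. Those data held no array set apart and no deviation shared by number, so that run says nothing about either. The number of arrays, 3 per group, limits precision.

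Same-numbered arrays deviated together from their group means (correlations 0.34, 0.59 and 0.66 over genes), so the numbers were read as pairs, from the data and not the labels. The Hox members, the gene lists and the fit without control replicate 2 were chosen with earlier results of these data known. Named were Hox genes above the median on all arrays, those past the threshold in a planned fit or with separate groups, their paralogs, and list genes past the threshold or of smallest p. Alternatives were scaling, offset, dim-gene filter, probe set choice, array weights, eBayes settings, the replicate block and arrays left out.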

Additional observations from a re-analysis of the deposited data

How the results depend on the processing

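With the replicate number as a block the count of Hox genes called stayed at 0, as did the count over all genes (limma), and with all 6 arrays the block changed no other call. The same 0 held for deposited scaling, median centring, offsets of 1 and 64, dim genes left out, the mean of probe sets, all probe sets, array weights and trend and robust settings. Leaving out 1 array in turn gave 0 to 291 genes and 0 to 1 Hox gene, the upper values being those without control replicate 2. Without both arrays numbered 2 there were 120 genes and 1 Hox gene with no block, and 721 and 1 with the replicate block. Of alternatives chosen after seeing the data, all probe sets without control replicate 2 gave 238 calls and 1 Hox gene, deposited scaling without control replicate 2 gave 155 and 1, and deposited scaling without both arrays numbered 2 gave 49 and 0. The Hox gene was Hoxa11 in each case. The 15 Hox genes above the array median became 6 against the median over 1 probe set per gene and 3 against the upper quartile, since both raise the bar. The median log2 fold change of the Hox genes ranged from -0.02 to 0.06. Of 832 values of 45 genes (all 33 Hox genes and 12 others named) under 19 alternatives, 743 kept direction and call, 36 gained a call and 53 changed sign, of which 0 passed the threshold. The sign changes were in Prdm2 and 17 Hox genes, and 16 Hox genes, Hoxa11 among them, had none. Leaving out 1 array in turn, the log2 fold change ranged from -0.0163 to 0.28 for Hoxa4, -0.0543 to 0.11 for Hoxa5, -0.0023 to 0.12 for Hoxa7, -0.15 to 0.15 for Hoxa10, -0.08 to 0.0143 for Hoxa13, -0.0056 to 0.11 for Hoxb2, -0.15 to 0.0123 for Hoxb3, -0.0078 to 0.14 for Hoxb6, -0.0566 to 0.0381 for Hoxb9, -0.14 to 0.0441 for Hoxc4, -0.24 to 0.21 for Hoxc6, -0.15 to 0.12 for Hoxc9, -0.02 to 0.13 for Hoxd3, -0.12 to 0.0116 for Hoxd8, -0.0031 to 0.13 for Hoxd9, -0.15 to 0.0048 for Hoxd13 and -0.0122 to 0.31 for Prdm2. Without both arrays numbered 2, with or without the replicate block, the sign turned in Hoxa2 (-0.0061), Hoxa10 (0.0263), Hoxa13 (0.0107) and Hoxb2 (-0.0195), and on the deposited scaling with no block these were -0.0009, 0.0221, 0.0174 and -0.0116. Deposited scaling without control replicate 2 turned Hoxa5 (-0.0204), Hoxa10 (0.16), Hoxb2 (-0.0008), Hoxb6 (-0.0052), Hoxc4 (0.0417), Hoxc6 (0.21), Hoxc9 (0.13) and Hoxd8 (0.0135). Array weights turned Hoxa2 (-0.0009), Hoxa10 (0.0354), Hoxc6 (0.0422) and Hoxc9 (0.0647), the mean of probe sets Hoxa4 (-0.0232), and deposited scaling and median centring Hoxb9 (0.0054 and 0.0037). The cause was not tested. The 8 HoxD genes and 5 of the 9 HoxB genes read below the array median on every array. Genes above it on every array, such as Hoxa10 and Hoxc6, changed sign too. The part of low signal was not tested.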
